A study of Homo sapiens with 12 samples.

Results

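The 6 vehicle libraries of a 12-library series on the human Merkel cell carcinoma line MKL-1 were described across all genes, 3 titled as vehicle at day 6 and 3 as vehicle at day 12. They were chosen by title, and no measured value entered the choice. MKL-1 is an established suspension line that carries Merkel cell polyomavirus, whose transcripts were not analysed here. Every vehicle culture received 1% ethanol, the solvent of the inhibitor given to the other 6 cultures. Those 6 libraries came from cells with EPZ011989, a small molecule that blocks the histone methyltransferase EZH2, at 3 µM. They enter here the gene filter, the scaling, the estimate of the spread between libraries, and the GC content of genes with its correction. Their own levels are given only for CXCL8. Cells grew in RPMI medium with 10% fetal bovine serum, were plated at 120000 cells per mL and were divided about 1 to 2 into fresh medium every 3 days. RNA came from a TRIzol extraction, and libraries were made from polyA RNA. The labels do not say whether the libraries of a day came from separate cultures, so the replicate spread behind each p-value could be purely technical. A culture without ethanol was not analysed here, so the word vehicle is used below rather than untreated. Day of culture and anything else that differed between the day 6 and day 12 collections cannot be told apart.

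Merkel cells are touch receptor cells of the skin. They develop under the transcription factors ATOH1, SOX2, POU4F3, ISL1, INSM1 and GFI1, build simple epithelial keratins such as KRT8, KRT18 and KRT20, and store peptides in dense-core granules marked by chromogranin A and synaptophysin. Merkel cell carcinoma shares these markers, and virus-positive tumours depend on the viral T antigens, which bind RB1 and recruit MYCL to chromatin. Cells in culture make sterols and fatty acids under the SREBP factors, which act when membrane sterol is low, and make chaperones under the heat shock factors when unfolded protein accumulates.

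The 6 libraries held 16152117 to 19818358 estimated reads, of which 3.09 to 3.16% belonged to transcripts with no matched gene. At this depth 3 reads of a gene, used below as the floor of a library, equalled 0.156 to 0.192 CPM (a gene's reads divided by the scaled size of its library in megareads), a limit that covers counting error only. Levels of different genes are compared below in TPM, a share of all transcripts that also divides by length, and 1 gene between days in CPM. Gene sums were incomplete for some genes, because transcripts without a match were lost. Such genes are named with the ratio of their sum to the gene level in the authors' table. Most long noncoding RNAs were not analysed here.

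Vehicle cells expressed 12215 of 35347 genes at 1 TPM or more in all 6 libraries, among them 11657 of 19812 protein-coding genes (58.8%). Another 4195 coding genes (21.2%) had under 3 reads in each library. At or above 10 TPM in all 6 libraries were 8819 genes, 1532 at or above 100 TPM and 96 at or above 1000 TPM. The 13 mRNAs of the mitochondrial genome, which encode subunits of the respiratory chain, stood among the 20 most abundant genes. MT-CO2 led with 19359 ± 2174 TPM (SD, n = 6), followed by MT-CO1 with 18282 ± 2389 TPM, both subunits of cytochrome c oxidase. The 13 mitochondrial mRNAs together held 11.9, 10.6 and 10.7% of TPM at day 6 and 12.5, 11.8 and 11.3% at day 12. Proteins of the cytosolic ribosome held a further 9.91 to 10.7%.

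Among nuclear genes, the translation elongation factor EEF1A1 was highest with 5048 ± 159 TPM (SD, n = 6), ahead of the ribosomal protein gene RPL41 with 4151 ± 818 TPM. TUBA1B, an alpha tubulin, reached 3467 ± 87.4 TPM and PPIA, a peptidyl-prolyl isomerase, 3404 ± 182 TPM. GAPDH, of glycolysis, stood at 3289 ± 82.0 TPM and PTMA, the nuclear protein prothymosin alpha, at 3206 ± 277 TPM. The mean ± SD of RPL41 overlapped those of EEF1A1, TUBA1B, PPIA, GAPDH and PTMA, and that of TUBA1B overlapped that of PPIA. Those of PPIA, GAPDH and PTMA overlapped too, so the order of overlapping genes was not resolved. EEF1A1, PPIA, GAPDH and PTMA have processed pseudogene copies in the genome, with which reads may be shared. STMN1, which binds tubulin dimers and is abundant in dividing and neural cells, had 2769 ± 146 TPM. PCP4, a small calmodulin-binding protein of Purkinje cells and other neurons, ranked 27 of all genes with 2265 ± 158 TPM, beside the ribosomal protein gene RPL10 with 2282 ± 272 TPM.

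The transcription factors that define Merkel cells were expressed in all 6 libraries. ATOH1 had 489, 506 and 497 TPM at day 6 and 435, 443 and 491 TPM at day 12. ATOH1 is the proneural factor that specifies Merkel cells and hair cells of the ear. POU4F3 had 489, 504 and 500.1 TPM at day 6 and 506, 509 and 508 TPM at day 12. POU4F3 acts downstream of ATOH1 in both cell types, and its 6 values varied little (503 ± 7.41 TPM, SD, n = 6), while the 2 lowest of ATOH1 came from day 12. SOX2 had 114, 116 and 126 TPM at day 6 and 107, 107 and 129 TPM at day 12, and INSM1, a zinc finger factor of neuroendocrine cells, had 324 ± 9.51 TPM (SD, n = 6). ISL1, a LIM homeobox factor of sensory neurons, had 281 ± 13.4 TPM, LHX3, another LIM homeobox factor, 187 ± 20.04 TPM, and GFI1, a repressor of hair cells and Merkel cells, 112 ± 4.23 TPM. HES6, a factor that promotes neuronal differentiation, was the most abundant of the 14 lineage factors, with 1048 ± 222 TPM. Of the 14 factors 12 were at 1 TPM or more in all 6 libraries, and none was under 3 reads throughout.

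**Figure D1:**
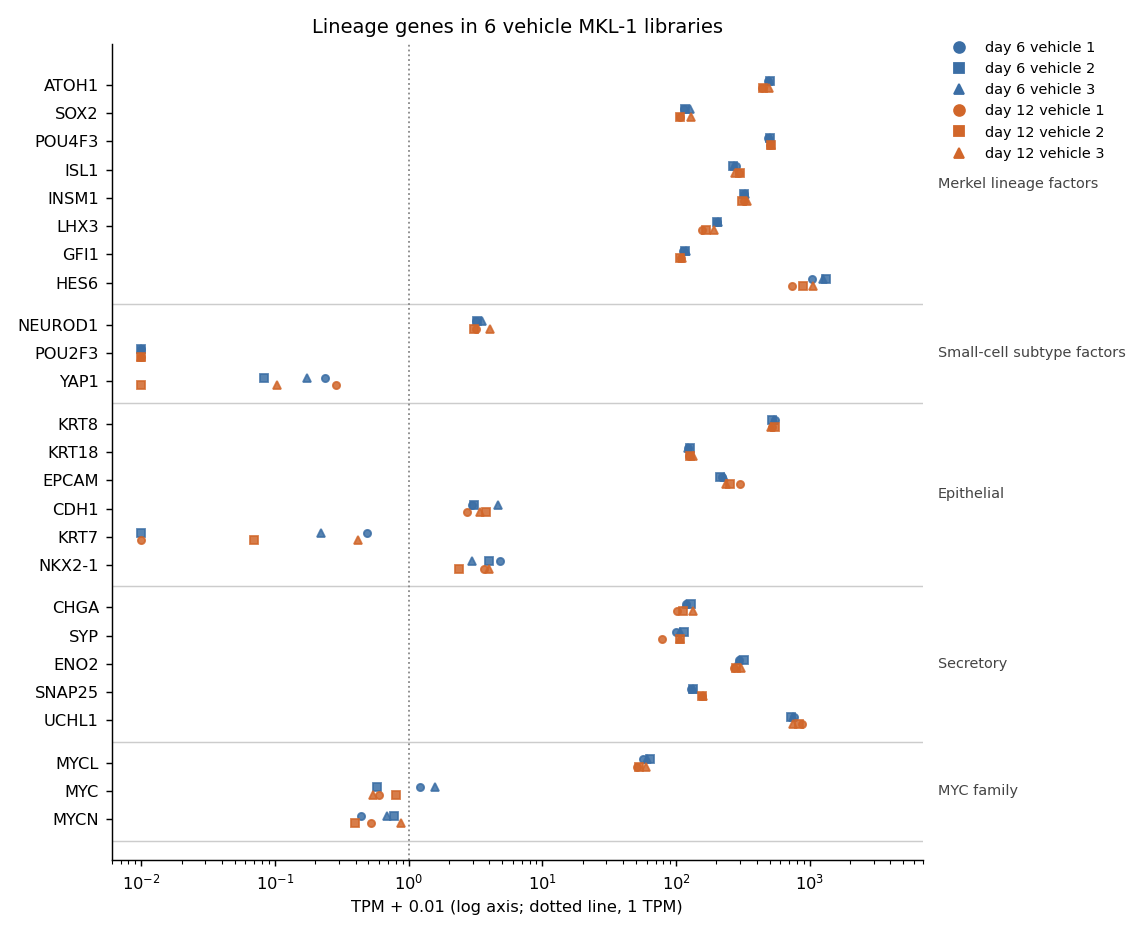
Level of lineage, keratin, secretory and MYC family genes in each of the 6 vehicle libraries, in TPM plus 0.01 on a log axis, with day 6 in blue, day 12 in orange and a marker shape for each replicate. The Merkel lineage factors drawn, a part of the 14 listed, lie above 100 TPM in every library, while POU2F3, YAP1 and KRT7 lie below the dotted line at 1 TPM. Of the 14, 2 did not reach 1 TPM in all 6 libraries and are not drawn.

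The factors that define subtypes of small-cell lung carcinoma were low beside these. NEUROD1, a proneural factor, had 3.37 ± 0.359 TPM (SD, n = 6). POU2F3, of tuft cells, had no read in any library. YAP1, a transcriptional effector of the Hippo pathway, had at most 9 reads in a library, a mean of 0.139 TPM. ATOH1, sometimes counted as a further subtype factor, was thus the only 1 of these 4 genes above 10 TPM.

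The most abundant keratins were those of simple epithelia. KRT8 had 548, 517 and 541 TPM at day 6 and 516, 551 and 512 TPM at day 12. KRT18, its partner, had 126 ± 3.73 TPM (SD, n = 6) and KRT19 103 ± 5.83 TPM. KRT20, the diagnostic keratin of Merkel cell carcinoma, was summed incompletely (ratio 0.302) and still reached 99.2 ± 18.3 TPM. KRT7, which is usually absent from this tumour, stayed at 0.193 TPM. Of 50 keratin genes 7 were at 1 TPM or more in all libraries, among them KRT10 and KRT15 of stratified epidermis, and 35 were under 3 reads in each. The adhesion protein gene EPCAM had 241 ± 30.8 TPM, whereas E-cadherin, encoded by CDH1, had 3.43 TPM.

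The secretory machinery of neuroendocrine cells was expressed without its common peptides. Of 26 secretory genes 23 were at 1 TPM or more in all 6 libraries. UCHL1, a neuronal deubiquitinase, had 777 ± 56.9 TPM (SD, n = 6), ENO2, neuron-specific enolase, 294 ± 18.2 TPM and STX1A, a syntaxin of vesicle fusion, 282 ± 18.7 TPM. CHGA, chromogranin A, had 119 ± 12.0 TPM, SYP, synaptophysin, 102 ± 12.1 TPM and NCAM1, the adhesion molecule CD56, 88.6 ± 2.92 TPM. The intervals of CHGA and SYP overlapped. Of 20 neuropeptide and amine enzyme genes none reached 1 TPM in all libraries, 15 were under 3 reads in each and 11, among them VIP, SST, PENK, NPY and CALCA, had no read. TPH1, the serotonin synthesis enzyme, was the highest of them with 1.08 ± 0.397 TPM. CALCB, a calcitonin gene-related peptide outside that list, was detected (38.4 to 41.4 CPM at day 6). The receptor SSTR2, the target of somatostatin analogue imaging, had 19.2 ± 0.934 TPM, and the other 4 somatostatin receptor genes had no read.

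Genes of mechanosensory cells and of neurons accompanied this pattern. MYO6, an unconventional myosin of hair cells, had 88.6 ± 3.76 TPM (SD, n = 6) and ESPN, an actin bundler of stereocilia, 68.6 ± 12.1 TPM. PIEZO2, the touch channel of Merkel cells, had 69.8 ± 9.44 TPM although its sum was incomplete (ratio 0.511). The tip link cadherin CDH23 had 18.2 ± 2.15 TPM, while TMC1, a channel subunit of hair cells, and TMIE had no read. Neurofilament NEFM reached 319 ± 17.6 TPM and the neuronal tubulin TUBB3 164 ± 14.7 TPM.

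Growth and survival genes showed a strong choice among family members. MYCL had 56.5, 63.6 and 60.9 TPM at day 6 and 51.0, 52.7 and 59.1 TPM at day 12. MYC had 0.872 ± 0.417 TPM (SD, n = 6) and MYCN 0.605 ± 0.193 TPM, both under 2 TPM in every library. Among the D-type cyclins CCND3 had 67.1 ± 4.28 TPM, CCND1 0.252 TPM and CCND2 0.00590 TPM. RB1, the tumour suppressor bound by large T antigen, was transcribed at 58.7 ± 4.24 TPM. CDKN2C, an inhibitor of CDK4 and CDK6, had 426 ± 43.6 TPM, while CDKN2A, its relative, had at most 3 reads in a library. All 42 proliferation genes were expressed, MKI67 with 113 ± 5.48 TPM and TK1, thymidine kinase, with 101 ± 11.5 TPM. Of the BCL2 family BCL2L1, which encodes BCL-XL, was at 351 ± 32.0 TPM, MCL1 at 113 ± 7.34 TPM and BCL2 at 42.4 ± 2.38 TPM. EZH2, the target of the inhibitor in the other cultures, had 104 ± 4.24 TPM in vehicle, and 21 of 22 Polycomb core genes were expressed. The Notch ligand DLL3, an inhibitory ligand of neuroendocrine tumours, had 112 ± 7.99 TPM, the receptor NOTCH1 0.241 TPM and the target HES1 3.01 ± 0.951 TPM.

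Genes known from B cells were also found. EBF1, an early B cell factor that neurons use too, had 54.5 ± 2.95 TPM (SD, n = 6). The constant region gene IGHM, of the immunoglobulin M heavy chain, had 268 ± 24.5 TPM and IGHG1 145 ± 13.8 TPM, and 6 of 9 heavy chain constant genes were at 1 TPM or more throughout. CD79B, a part of the B cell receptor, had 12.5 ± 6.41 TPM. PAX5 was summed at a ratio of 0.0878, so its level was not read. VPREB1 had no read, and of 13 B lineage genes 3 were expressed and 5 were under 3 reads in each library.

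Of 18 genes of class I antigen presentation 11 were at 1 TPM or more in all 6 libraries and 2 were under 3 reads in each. The chaperones of peptide loading led those that could be read, CALR, calreticulin, with 502 ± 18.1 TPM (SD, n = 6) and PDIA3 with 289 ± 17.7 TPM. TAP1, the peptide transporter, had 2.02 ± 0.483 TPM, NLRC5, which activates these genes, 7.90 ± 2.48 TPM and ERAP1, a peptidase that trims peptides, 11.7 ± 1.84 TPM. HLA-B, HLA-C, B2M and TAPBP were summed incompletely and their levels were not read. None of 11 class II presentation genes was at 1 TPM in all libraries, although the master regulator CIITA averaged 1.34 TPM. Of 29 interferon response genes 12 were expressed, led by IFI6 with 106 ± 8.40 TPM, while ISG15 was at 0.439 TPM. Of the 17 type I interferon genes 16 had no read and 1 had a single read.

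Markers of other skin cells were near the floor. Of 12 keratinocyte markers KRT10 (15.6 ± 6.21 TPM, SD, n = 6) and KRT15 were expressed, and KRT1, IVL, DSG1 and LORICRIN had no read. None of 8 melanocyte markers was expressed in all libraries. Of 10 fibroblast markers only DCN, decorin, was, with 14.6 ± 4.61 TPM, of 12 leukocyte markers only CD68 and of 8 endothelial markers only CLDN5. The summed TPM of the fibroblast list was 16.1 to 18.6 at day 6 and 8.08 to 22.7 at day 12, and that of the leukocyte list 6.79 to 8.21 and 5.08 to 8.40. Among genes of alcohol and aldehyde metabolism, ADH5 had 106 ± 5.54 TPM and ALDH2 24.9 ± 2.63 TPM, whereas ADH1C, ADH4 and ADH7 had no read. Whether the cells metabolized the ethanol was not tested.

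Some gene families were silent or nearly so. All 19 UDP glucuronosyltransferase genes, which conjugate drugs and bilirubin, had no read in any of the 6 libraries. Of 379 olfactory receptor genes none was expressed and 354 were under 3 reads in each library, and of 94 keratin-associated protein genes of hair 90 were. Of 19 late cornified envelope genes 18 were silent by the same measure, of 37 beta defensin genes 34, of 31 GAGE, XAGE, PAGE and SSX genes 29 and of 35 MAGE genes 27. Expressed members were 1 keratin-associated protein gene, 2 beta defensin genes and 1 gene of the GAGE group. That group summed to 77.6 to 88.1 TPM. The expressed MAGE genes were led by MAGED1, a ubiquitous member, with 145 ± 6.65 TPM (SD, n = 6). No GATA factor was expressed.

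Other families were partly active. Of 39 HOX genes 17 were expressed and 11 silent, and HOXA9 led with 186 ± 8.93 TPM (SD, n = 6), ahead of HOXA10 with 66.2 ± 7.60 TPM. Of 44 collagen genes 5 were expressed, and COL9A2, a cartilage collagen, held most of their sum with 499.6 ± 80.7 TPM. All 53 clustered protocadherin genes, which give neurons their surface identity, had reads, 21 of them at 1 TPM or more throughout and none silent. Many copies within the protocadherin, histone and defensin families are near identical, so reads may be split between them. Of 475 zinc finger genes of the ZNF series 410 were expressed.

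**Figure D2:**
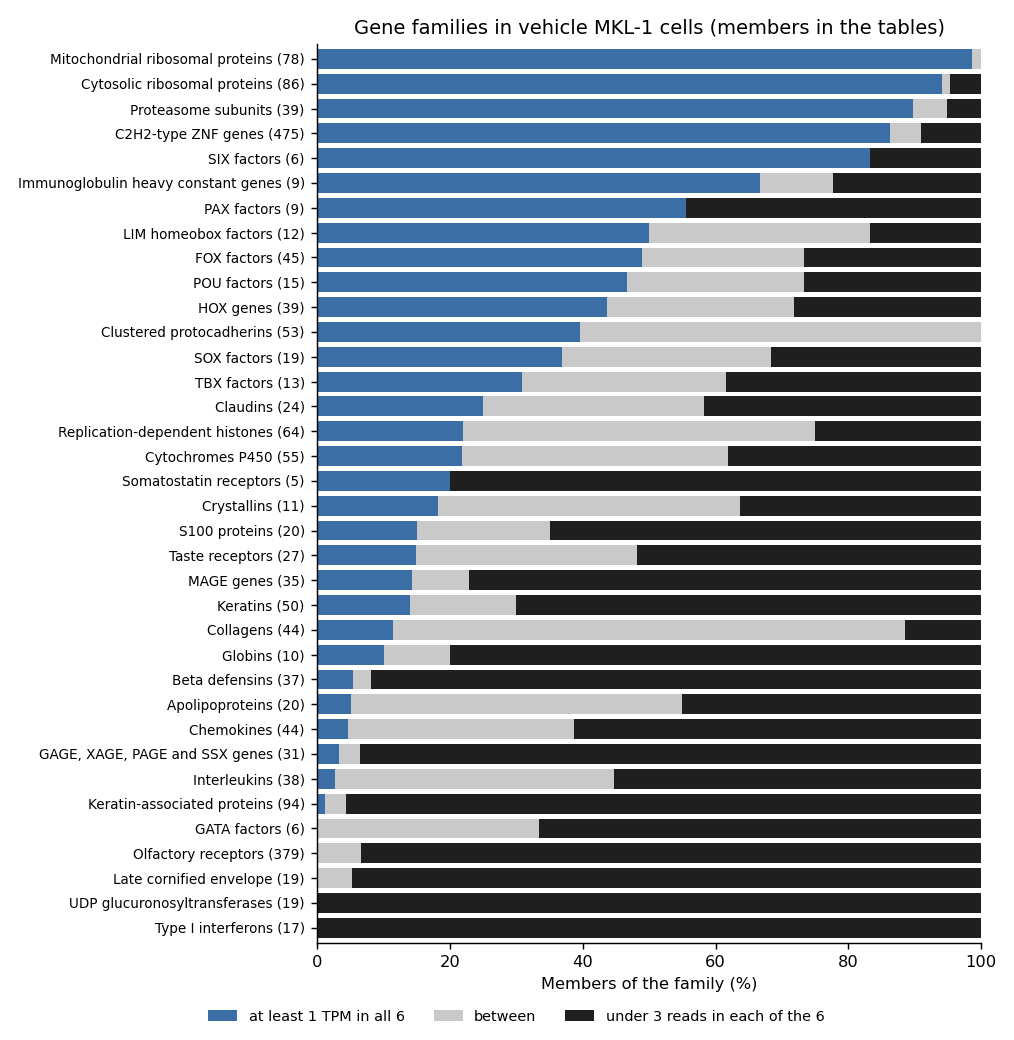
Share of each family's genes, in percent of the members in the tables, that were at 1 TPM or more in all 6 vehicle libraries (blue), under 3 reads in each of them (black) or between (grey), with the number of members in brackets. Ribosomal and proteasome families lie near full expression, and interferon, glucuronosyltransferase, olfactory receptor and cornified envelope genes near 0.

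Before the days are compared, the libraries themselves differed along base composition. The median SD of log2 CPM within a day was 0.11 over 11090 genes at 5 CPM or more, and 142 of these genes had an SD over 0.5. Genes were ordered into 5 bins of equal size by the GC content of their transcripts. The median deviation of the most GC-rich bin minus that of the poorest was 0.10, 0.27 and 0.23 log2 at day 6 and -0.46, -0.20 and 0.07 at day 12. The ranges of the days did not overlap, and replicate 1 of day 12 lay farthest out. The first principal component held 39.2% of the variance among vehicle libraries, with that replicate at 41.2, the other day 12 libraries at 14.2 and -5.82 and the day 6 libraries at -7.56, -23.6 and -18.5. Whether the GC trend arose in the cells or in library preparation was not tested.

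**Figure D3:**
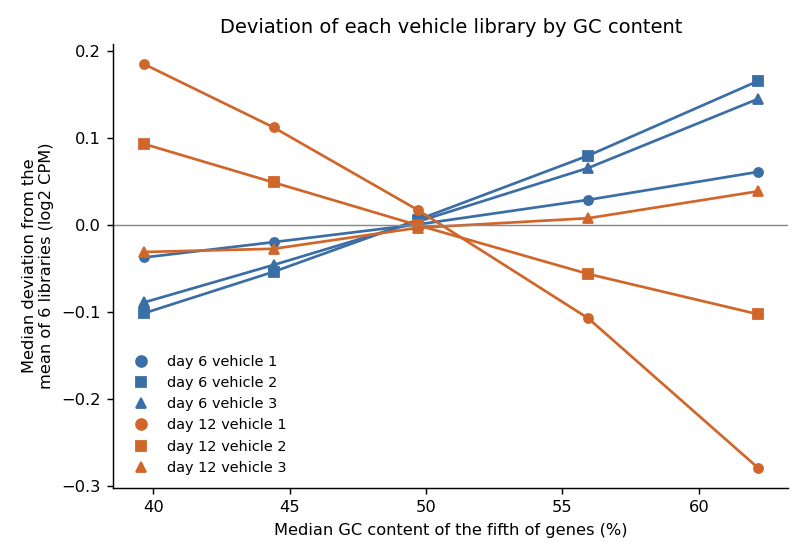
Median deviation of each vehicle library from the mean of the 6, in log2 CPM, for 5 bins of genes placed at their median GC content in percent. The lines of replicates 1 and 2 of day 12 slope down and those of the 3 day 6 libraries and of replicate 3 of day 12 slope up, with replicate 1 of day 12 steepest.

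Between day 6 and day 12, edgeR called 1970 of 15024 tested genes (13.1%) at an adjusted p under 0.05, 896 higher at day 12 (5.96%) and 1074 lower (7.15%). The changes were small. The median size was 0.30 log2, 1771 of the called genes changed by under 1.5-fold, and 85 changed at least 2-fold (0.566%), 36 upward (0.24%) and 49 downward (0.326%). The days did not overlap in CPM for 4348 genes (28.9%), called or not. In bulk RNA, fewer cells of a type and less RNA per cell cannot be told apart.

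The number of called genes moved with single libraries. It was 529 without replicate 1 of day 12 (3.44% of 15396 genes, 209 higher and 320 lower), of which 503 were among the 1970. Of these tested genes 1.36% were higher and 2.08% lower. It was 470 without replicate 2 of day 12 (3.05%, with 1.25% higher and 1.8% lower) and 4183 without replicate 3 of day 12 (27.1%, with 13.9% higher and 13.2% lower). It was 184 without replicate 2 of day 6 (1.2%, with 0.605% higher and 0.592% lower) and 186 without replicate 3 of day 6 (1.21%, with 0.631% higher and 0.579% lower). Without replicate 1 of day 6 it was 1834 (11.9%, with 5.59% higher and 6.32% lower). Genes at least 2-fold different numbered 30, 33, 212, 15 and 15 without the first 5 of these. The fit of the 6 vehicle libraries alone called 9 genes (0.0649%). With the effective transcript lengths of each library as an offset, 89 of 15024 genes were called, 46 higher and 43 lower.

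The called genes followed GC content. In the GC-poorest bin 545 genes were higher at day 12 and 12 lower, and in the richest 6 were higher and 575 lower, with median changes of 0.16 and -0.23 log2. Across 15015 genes, which are not independent replicates, Spearman's rank correlation of log2 change with GC content was -0.53, and it was -0.40 without replicate 1 of day 12. With an offset for GC content and length in each library, chosen after the data were seen, that correlation was 0.04 and 682 genes were called (4.54%, with 2.18% higher and 2.36% lower), 399 of them among the 1970. That offset gave 172 genes in the vehicle libraries alone (1.24%) and 250 without replicate 1 of day 12 (1.62%). Both fits called 99 genes, 53 higher and 46 lower, that also passed with the offset in the vehicle libraries alone and without replicate 1 of day 12. Genes below are described first where they passed with and without the offset and in all 6 fits that leave out 1 vehicle library.

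Of the genes called in every alternative fit, 4 rose. At day 6 NPTX1 had 15.8, 14.0 and 17.1 CPM, and at day 12 it had 36.9, 41.9 and 45.03 CPM. NPTX1, neuronal pentraxin, gathers glutamate receptors at synapses and lies on chromosome 17, 80467148 to 80477843, GRCh38. Its days did not overlap, and it rose by 1.40 ± 0.089 log2 (SE, edgeR adjusted p = 2.14e-06). The 3 day 6 libraries held 1115, 1054 and 1043 CPM of HSPA8 and the day 12 libraries 1670.3, 1565 and 1413 CPM. The constitutive chaperone HSC70, which it encodes, was highest in replicate 1 of day 12, and all day 12 values lay above all day 6 values. CD24 had 36.2, 33.8 and 31.5 CPM at day 6 against 53.9, 57.5 and 51.9 CPM at day 12, a rise of 0.69 ± 0.057 log2 (edgeR adjusted p = 3.35e-05). CD24 is a small surface glycoprotein of neural and B cell precursors. Levels of ABLIM1 were 120.7, 126 and 125 CPM at day 6 and 176, 179.8 and 178 CPM at day 12. ABLIM1, an actin-binding LIM protein, thus differed by 0.52 ± 0.043 log2 with an SD of 2.75 CPM or less within a day.

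The other 3 fell. RELN was at 333, 323 and 327 CPM at day 6 and 219, 221 and 225 CPM at day 12. RELN encodes reelin, a secreted guidance protein of migrating neurons (chromosome 7, 103471784 to 103989516, GRCh38), and fell by 0.57 log2 (SE 0.034, edgeR adjusted p = 2.14e-06) with no overlap. At day 6 STC2 had 32.7, 33.3 and 32.3 CPM, and at day 12 it had 17.6, 18.7 and 19.8 CPM. STC2, stanniocalcin 2, is a secreted glycoprotein induced by stress of the endoplasmic reticulum, and fell by 0.81 log2 (SE 0.072). The 3 day 6 libraries held 197, 199.5 and 209 CPM of INSIG1 and the day 12 libraries 154, 150.0 and 150.0 CPM. INSIG1 holds the SREBP precursors in the endoplasmic reticulum and is itself a sterol-regulated gene. It fell by 0.42 log2 (SE 0.047, edgeR adjusted p = 8.77e-04). The matrix proteoglycan VCAN, versican, rose from 35.4 ± 3.60 to 58.9 ± 0.706 CPM, called with the offset and in all 6 fits that left out a vehicle library.

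**Figure D4:**
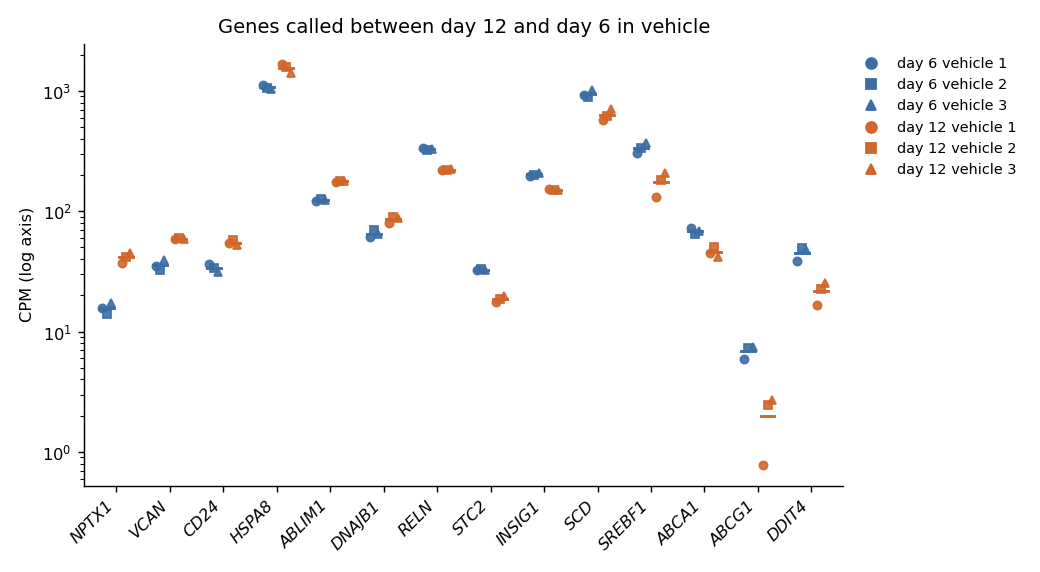
CPM, on a log axis, of 14 genes called between days, with day 6 vehicle in blue, day 12 vehicle in orange, a marker shape for each replicate and a bar at each day's mean. For each of the 14 genes the 3 day 12 values lie on 1 side of the 3 day 6 values.

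Genes of lipid synthesis were among those that fell. Of 24 tested genes of cholesterol synthesis and its control 10 were lower at day 12 and 0 higher, with a median change of -0.26 log2 beside 0.00088 over all genes, and of 12 genes of fatty acid synthesis 6 were lower and 0 higher (median -0.23). With the GC and length offset 6 and 6 were lower (medians -0.15 and -0.18), and without replicate 1 of day 12 also 6 and 6. Over the fits that left out 1 vehicle library the counts were 2 to 12 and 3 to 6, with 2 and 3 without replicate 3 of day 6, 3 and 4 without replicate 2 of day 6, and 5 and 5 without replicate 2 of day 12. Among all tested genes 7.15% were lower, 2.36% with the offset, 2.08% without replicate 1 of day 12 and 0.579 to 13.2% over these fits. The median GC content of the lists was 51.3 and 51.5%. Across all genes the middle bin by GC, from 46.9 to 52.8%, had a median change of 0.00, and the next, from 52.8 to 58.9%, one of -0.11 log2. A list median does not describe each member, and the part of base composition in these falls was not tested.

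SREBF1 had 304, 333 and 372 CPM at day 6 against 131, 181 and 209 CPM at day 12. SREBF1 encodes the SREBP factor of fatty acid genes (chromosome 17, 17810399 to 17837002, GRCh38), was lowest in replicate 1 of day 12 and fell by 0.95 log2 (SE 0.14, edgeR adjusted p = 0.00441), or by 0.68 with the offset. Levels of SCD were 924, 895 and 1009.6 CPM at day 6 and 574, 614 and 711 CPM at day 12. SCD, stearoyl-CoA desaturase, makes oleate, and its days did not overlap (-0.57 log2, SE 0.084, edgeR adjusted p = 0.00421). LSS was at 392, 456 and 472 CPM at day 6 and 269, 306 and 320.2 CPM at day 12. Lanosterol synthase, its product, closes the sterol ring, and LSS fell by 0.56 log2 (SE 0.076). At day 6 FADS2 had 478, 510.3 and 532 CPM, and at day 12 it had 294, 361 and 408 CPM. FADS2 is the first desaturase of polyunsaturated fatty acids, and its values too were lowest in replicate 1 of day 12. FASN, fatty acid synthase, fell by 0.43 log2, or by 0.14 with the offset, so that its size depended on the offset more than that of SCD did (-0.64 with the offset). DHCR7 and ACLY were also lower with and without the offset. The calls of FASN and DHCR7 were lost without replicate 3 of day 6, and that of ACLY without either replicate 2 or replicate 3 of that day.

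Other sterol genes were not called, or not with the offset. HMGCS1 was at 461 ± 15.8 CPM at day 6 and 457 ± 36.3 CPM at day 12, and SQLE, squalene epoxidase, at 106 ± 2.63 and 110.2 ± 3.65 CPM, neither called. SREBF2, the SREBP factor of cholesterol genes, was called (-0.25 log2) but not with the offset (-0.12 log2), nor without replicate 2 or replicate 3 of day 6. The sterol exporters, which respond to oxysterols, fell as well. The 3 day 6 libraries held 73.1, 64.3 and 68.8 CPM of ABCA1 and the day 12 libraries 45.4, 50.3 and 42.0 CPM. ABCA1 fell by 0.58 log2 (SE 0.095, edgeR adjusted p = 0.00562). ABCG1 had 5.91, 7.28 and 7.501 CPM at day 6 against 0.772, 2.47 and 2.71 CPM at day 12. All 3 values of ABCG1 at day 12 lay below those at day 6, lowest in replicate 1 (-1.79 log2, SE 0.33).

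Promoter windows of 250 bases before the RefSeq start (GRCh38.p14) were available for 18 cholesterol and 11 fatty acid synthesis genes and for 27305 genes in all. They are shown for members named above, because several members of these lists fell. A gene counted where any of its windows held the letters. The CCAAT box, bound by NF-Y, which works beside SREBP, was sought as CCAAT on both strands. It stood in 16 of the 18 and 7 of the 11 genes, against 41.7% of 11269 tested genes and 37.0% of all genes with a window. Among the genes named above, INSIG1, LSS, SCD, DHCR7 and ACLY, which fell, held the box. SREBF1 and FADS2, which also fell, did not, while HMGCS1, which was not called, did. Whether the box bears on the falls was not tested. The sterol regulatory element, ATCAC followed directly by CCCAC, on both strands, stood in 1 of the 18, SREBF2 itself, and in 0 of the 11. It stood in 5 of the tested genes (0.0444%) and in 12 of all genes with a window (0.0439%). A match is a description of these letters only. Capitals mark the sterol element in SREBF2 (chr22:41832855-41833104, plus strand) and CCAAT boxes, written ATTGG where they lie on the other strand, in INSIG1 (chr7:155297628-155297877, plus strand) and SCD (chr10:100346983-100347232, plus strand). The match begins 134 bases before the start in SREBF2, 170 in INSIG1 and 229 and 186 in SCD.
SREBF2: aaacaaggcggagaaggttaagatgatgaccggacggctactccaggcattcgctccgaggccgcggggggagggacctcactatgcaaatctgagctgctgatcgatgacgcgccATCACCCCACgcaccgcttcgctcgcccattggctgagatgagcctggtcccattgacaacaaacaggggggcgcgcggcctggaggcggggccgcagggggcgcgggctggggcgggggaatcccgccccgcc
INSIG1: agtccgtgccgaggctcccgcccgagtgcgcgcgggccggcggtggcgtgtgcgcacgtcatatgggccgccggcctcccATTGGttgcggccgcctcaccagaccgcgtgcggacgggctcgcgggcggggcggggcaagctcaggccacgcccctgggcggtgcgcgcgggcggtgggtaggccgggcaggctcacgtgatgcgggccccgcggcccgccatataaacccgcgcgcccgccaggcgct
SCD: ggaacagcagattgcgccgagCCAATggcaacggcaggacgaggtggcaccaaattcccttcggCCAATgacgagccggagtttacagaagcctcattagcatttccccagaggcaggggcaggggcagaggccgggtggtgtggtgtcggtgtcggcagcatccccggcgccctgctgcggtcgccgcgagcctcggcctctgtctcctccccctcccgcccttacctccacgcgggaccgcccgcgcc

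Chaperone genes were among those that rose. Of 13 tested cytosolic heat shock genes 6 were higher at day 12 and 1 lower (median 0.25 log2), 5 and 0 with the GC and length offset (median 0.10) and 5 and 1 without replicate 1 of day 12. Over the fits that left out 1 vehicle library 4 to 9 were higher and 0 to 3 lower, most without replicate 3 of day 12. The shares over all tested genes were 5.96% higher and 7.15% lower, and 2.18 and 2.36% with the offset. They were 1.36 and 2.08% without replicate 1 of day 12, and 0.605 to 13.9% and 0.579 to 13.2% over the fits that left out 1 library. HSPA8 led the list. Levels of DNAJB1 were 61.1, 69.6 and 65.0 CPM at day 6 and 79.2, 89.8 and 87.3 CPM at day 12. DNAJB1, the HSP40 that hands clients to HSP70, rose by 0.39 ± 0.069 log2 (edgeR adjusted p = 0.00804), or by 0.46 with the offset. HSPH1 was at 335, 314 and 304 CPM at day 6 and 436, 416 and 363 CPM at day 12. HSPH1 is a nucleotide exchange factor of HSP70. At day 6 DNAJA1 had 358, 352 and 333 CPM, and at day 12 it had 447, 424 and 401 CPM, so that neither co-chaperone overlapped between days. HSP90AA1, the inducible HSP90, rose by 0.31 log2 but was lost without replicate 2 or 3 of day 6, and HSPB1, a small heat shock protein, fell by 0.28 log2 and was not called with the offset (0.03 log2), nor without replicate 2 or 3 of day 6. The 3 day 6 libraries held 56.6, 44.1 and 47.1 CPM of CHORDC1 and the day 12 libraries 89.1, 74.9 and 72.6 CPM. CHORDC1, an HSP90 partner outside the list, rose by 0.68 ± 0.094 log2. HSPA2, a testis and brain HSP70 outside the list, was at 534 ± 21.2 CPM at day 6 and 612 ± 15.3 CPM at day 12, and its call was kept in only 1 of the 6 fits that left out a vehicle library, that without replicate 3 of day 12.

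The heat shock element, 3 inverted repeats of GAA in the form GAA, NN, TTC, NN and GAA without gaps, was sought on both strands. It stood in 4 of the 12 heat shock genes with a window (HSPA8, HSP90AA1, HSP90AB1 and HSPD1) and in none of the 18 cholesterol genes. It stood in 54 of 11269 tested genes (0.479%) and in 152 of 27305 genes (0.557%). Capitals mark it in the 2 members that rose, HSPA8 (chr11:123062137-123062386, minus strand) and HSP90AA1 (chr14:102087045-102087294, minus strand). In HSPA8 matches begin 230 and 55 bases before the start. In HSP90AA1 a match begins 88 bases before 1 of the 2 starts listed. DNAJB1, HSPH1 and DNAJA1 have no such match in their windows.
HSPA8: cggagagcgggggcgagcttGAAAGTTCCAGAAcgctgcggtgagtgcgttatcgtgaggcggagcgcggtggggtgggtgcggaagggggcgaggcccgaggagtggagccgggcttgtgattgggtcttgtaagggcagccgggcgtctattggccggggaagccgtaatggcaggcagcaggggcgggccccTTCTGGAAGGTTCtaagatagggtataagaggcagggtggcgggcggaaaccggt
HSP90AA1: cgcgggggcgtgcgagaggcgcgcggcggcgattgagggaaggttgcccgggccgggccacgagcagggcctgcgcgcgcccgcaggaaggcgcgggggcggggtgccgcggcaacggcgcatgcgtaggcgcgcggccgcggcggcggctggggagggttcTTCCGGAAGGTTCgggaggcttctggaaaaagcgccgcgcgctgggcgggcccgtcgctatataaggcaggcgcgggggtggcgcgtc

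**Figure D5:**
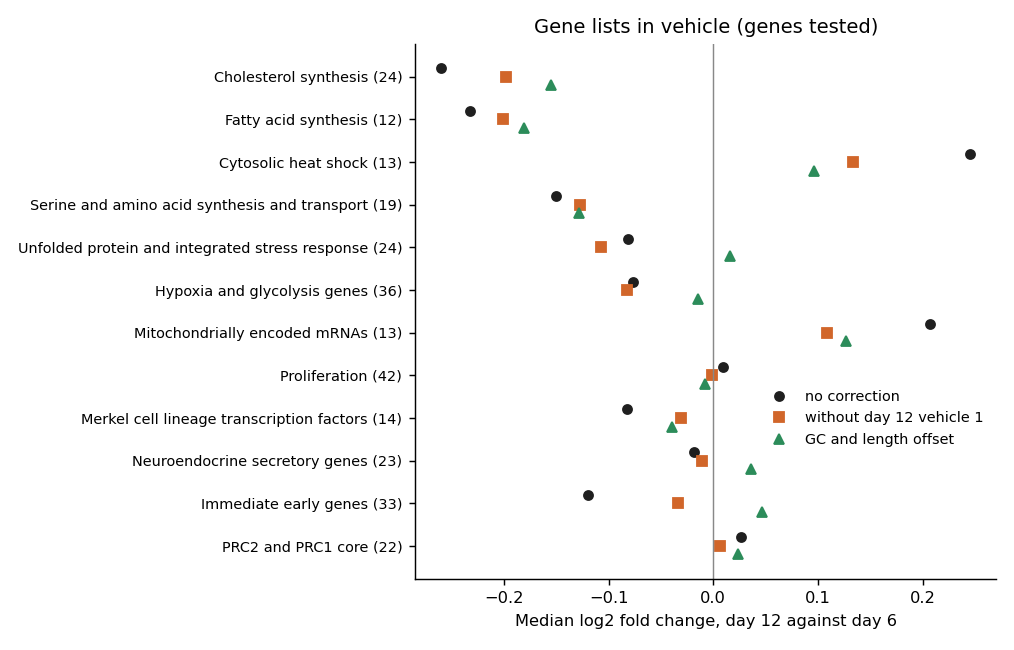
Median log2 fold change, day 12 against day 6, of the tested genes of 12 lists (number in brackets), with no correction (black circles), without replicate 1 of day 12 (orange squares) and with the GC and length offset (green triangles). Lipid synthesis lists lie left of 0 and heat shock and mitochondrial lists right of 0 in all 3 fits, while lists such as immediate early genes cross it.

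Stress genes of the endoplasmic reticulum and of amino acid supply divided. HSP90B1 had 689.8, 685 and 655 CPM at day 6 against 974, 872 and 779.9 CPM at day 12. HSP90B1, the HSP90 of that compartment, rose by 0.37 ± 0.061 log2, and HSPA5, its HSP70, by 0.23 log2, a call lost without replicate 2 of day 12 or replicate 2 or 3 of day 6. Levels of DDIT4 were 38.7, 49.2 and 47.4 CPM at day 6 and 16.6, 22.8 and 25.4 CPM at day 12. DDIT4, an inhibitor of mTORC1 induced by hypoxia and stress, fell by 1.06 log2 (SE 0.13, edgeR adjusted p = 0.00118), or by 0.86 with the offset. CHAC1 was at 14.9, 17.0 and 17.3 CPM at day 6 and 7.21, 10.3 and 9.28 CPM at day 12. CHAC1 degrades glutathione under ATF4 and fell by 0.87 log2 (SE 0.15). SESN2, an inhibitor of mTORC1 under amino acid shortage, fell by 0.53 log2, a call lost without replicate 2 or 3 of day 6. Of 24 tested genes of the unfolded protein and integrated stress responses 4 were higher and 6 lower (3 and 3 with the offset, 2 and 3 without replicate 1 of day 12), and of 19 genes of serine and amino acid supply 0 and 6 (0 and 5, and 0 and 3). Beside them 5.96% of all tested genes were higher and 7.15% lower (2.18 and 2.36%, and 1.36 and 2.08%). Leaving out 1 vehicle library gave 0.605 to 13.9% higher and 0.579 to 13.2% lower. Over the fits that left out 1 vehicle library the first list had 1 to 3 higher and 1 to 6 lower, fewest without replicate 3 of day 6, and the second 2 to 7 lower, fewest without replicate 2 of day 6. Among the latter the transporter chain SLC3A2 fell by 0.37 log2, and PHGDH, the first enzyme of serine synthesis, by 0.25, which was not called with the offset (-0.09 log2).

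Signalling and neural genes with called changes in both fits and all leave-one-out fits were few per list. At day 6 CCL19 had 5.30, 7.06 and 6.07 CPM, and at day 12 it had 11.1, 11.3 and 13.3 CPM. CCL19, a chemokine of lymph nodes, rose by 0.95 ± 0.14 log2 (edgeR adjusted p = 0.00441), and CXCL12, another, went from 33.1 ± 2.15 to 41.9 ± 1.75 CPM. They were the 2 risers of 9 tested chemokine genes, none of which fell with all 6 libraries, while without replicate 1 of day 12 CXCL8 (no read in the other 2 day 12 libraries) was called lower, with and without the offset. With all 6 libraries 5.96% of all tested genes were higher, and 2.18% with the offset. The 3 day 6 libraries held 43.0, 42.5 and 42.7 CPM of NOTCH2 and the day 12 libraries 52.6, 52.7 and 54.1 CPM. NOTCH2, a Notch receptor, rose by 0.31 ± 0.049 log2. CALCB had 38.4, 39.2 and 41.4 CPM at day 6 against 23.9, 28.0 and 28.5 CPM at day 12, a fall of the neuropeptide gene by 0.57 log2 (SE 0.090). BMF, a pro-apoptotic BCL2 relative, fell from 115 ± 4.05 to 85.7 ± 6.90 CPM, and KLF9, a glucocorticoid-responsive factor, from 21.5 ± 1.28 to 14.4 ± 1.25 CPM. SNAP25, of vesicle fusion, rose by 0.28 ± 0.047 log2. The tip link gene CDH23 rose by 0.23 log2, or by 0.41 with the offset, but its call was lost without replicate 2 of day 12 or any 1 of the day 6 libraries.

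Some lineage factors were called, in fits that differed. Of 14 lineage factors 4 were lower at day 12, where 7.15% of all genes were, with a median of -0.08 log2, 1 with the offset and 1 without replicate 1 of day 12, and over the fits that left out 1 vehicle library 0 to 7 were, most without replicate 3 of day 12. ATOH1 (-0.15 log2), GFI1 (-0.15) and LHX3 (-0.34) were not called with the offset (-0.09, -0.03 and -0.06). Levels of HES6 were 672, 924 and 877 CPM at day 6 and 377, 509 and 663 CPM at day 12. HES6 fell by 0.68 log2, or by 0.31 with the offset, its nearest values from the 2 days were close, and its call was lost without replicate 1 or 2 of day 12 or replicate 2 or 3 of day 6. ATOH1 and GFI1 were called in only 1 of the 6 fits that left out a vehicle library, that without replicate 3 of day 12, and LHX3 was lost without replicate 2 or 3 of day 6. POU4F3 (-0.02 ± 0.035 log2), SOX2 (-0.06 ± 0.069), INSM1 (-0.26 ± 0.097) and ISL1 (0.09 ± 0.046) did not pass, nor did KRT8 (-0.17 ± 0.056).

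Proliferation genes gave no common direction. Of 42 tested 7 were higher and 4 lower (median 0.01 log2), 1 and 1 with the offset, and 1 and 3 without replicate 1 of day 12. Over the fits that left out 1 vehicle library 1 to 12 were higher and 1 to 7 lower, most without replicate 3 of day 12. All tested genes gave 5.96% higher and 7.15% lower, 2.18 and 2.36% with the offset, and 1.36 and 2.08% without replicate 1 of day 12. Leaving out 1 vehicle library gave 0.605 to 13.9% higher and 0.579 to 13.2% lower. CENPE, a kinetochore motor, went from 173 ± 16.8 to 246 ± 31.5 CPM and was called in both and in all leave-one-out fits (0.51 ± 0.083 log2). MKI67 rose by 0.16 log2 and was not called with the offset, and CDT1, MCM7 and E2F1, of replication control, fell and were not called with it either. The calls of MKI67 and E2F1 were lost without replicate 2 of day 12 and, with that of MCM7, without replicate 2 or 3 of day 6, and that of MKI67 also without replicate 1 of day 12. EZH2 was at 157 ± 2.36 CPM at day 6 and 174 ± 9.68 CPM at day 12 and was not called (0.15 ± 0.048 log2), and of 22 Polycomb core genes 0 were higher and 1 lower. Of 13 mitochondrial mRNAs 1, MT-CO1, was higher (0.34 ± 0.078 log2), and over the fits that left out 1 vehicle library 0 to 9 were, 0 without replicate 1 of day 12 and 9 without replicate 3.

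The largest fold changes lay in genes of few reads. IFI30, a thiol reductase of antigen-processing cells, had 1.27, 1.85 and 1.06 CPM at day 6, 0.0644 CPM in replicate 1 of day 12 and no read in the other 2. COL1A1, the chain of fibrillar collagen of connective tissue, had 3.37, 1.57 and 1.80 CPM at day 6 and 0.257, 0.112 and 0.580 CPM at day 12, a fall of 2.83 log2 (SE 0.50, edgeR adjusted p = 0.00804), with a sum above the authors' level (ratio 1.26). COL3A1 was called lower too, though in none of the 6 fits that left out a vehicle library, and COL1A2, at 1.63 ± 0.483 and 0.255 ± 0.236 CPM, was not called. Of 4 tested fibroblast markers 2 fell, and 1 with the offset, where 7.15 and 2.36% of all tested genes were lower. The day 12 libraries held at most 2 reads of COL3A1, while DCN, the most abundant fibroblast marker, had 7.71 to 21.6 TPM at day 12 against 13.7 to 17.1 TPM at day 6. The part of other cells in these falls was not tested. RND1, a small GTPase of the cytoskeleton, fell from 1.77 ± 0.213 to 0.597 ± 0.210 CPM. Its call was lost without replicate 1 or 2 of day 12 or replicate 2 or 3 of day 6. Among the 12 largest rises POLR3G, PMS2P10, PROM1 and NTN4 were summed incompletely or in excess, and PMS2P10 was lower at day 12 in the authors' table. H3P6 and BTF3L4P2 are pseudogenes whose parent genes share their sequence, so their changes (2.33 and 1.41 log2) are uncertain. SYS1-DBNDD2, a readthrough of neighbouring genes, was among the largest falls and is uncertain for the same reason.

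Replicate 1 of day 12 stood apart in some genes. Its median absolute difference from the other 2 libraries of its day was 0.16 log2 over 13032 genes, as was that of replicate 3. Of 11090 genes at 5 CPM or more replicate 1 lay at least 1.5-fold above both other day 12 libraries in 49 and below both in 166. The other 5 libraries had 19 to 61 above and 32 to 42 below, with the 61 in replicate 3 of day 12. The 166 had a median GC content of 61.8%, against 48.7% for all. ZBTB20, a transcriptional repressor, had no read in replicate 1 and 9.25 and 9.02 CPM in the others of day 12, with a sum at 0.79 of the authors' level. Replicate 1 also held reads of a few genes that the other 2 had at 0 to 3 reads, several of them inflammatory. CXCL8, the neutrophil chemokine, had 79, 95 and 93 reads at day 6 and 110, 0 and 0 at day 12. IL1B, an inflammatory cytokine, had 28, 39 and 47 reads and then 35, 2 and 2, and CXCL2 had 9, 15 and 10 and then 15, 1 and 0. PTPRC, the leukocyte marker CD45, had 5, 4 and 8 reads and then 2, 0 and 0. PAQR7, a membrane progestin receptor and no inflammatory gene, had 20, 40 and 53 reads and then 54, 3 and 0. Only 4 genes at 0.8 CPM or more in the 3 day 6 libraries and in replicate 1 of day 12 were under 0.25 of their lowest value there in both other day 12 libraries, CXCL8, IL1B, PAQR7 and the histone gene HIST2H2AA3, which has a near-identical copy. Replicate 1 of day 12 thus resembled the day 6 libraries in these genes, and day 12 overlapped day 6. CXCL8 was also found in inhibitor-treated cells, with 23.8, 1.86 and 2.02 CPM at day 6 and 0.358, 0.603 and 0.169 CPM at day 12. These genes were picked after their values were seen, and which cells they came from was not tested.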

How the data were processed

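PolyA RNA of MKL-1 cells was sequenced as 12 libraries, 3 for each of 4 groups taken from the sample titles. The authors deposited estimated counts of reads and TPM per transcript for each library, made with Salmon 1.2.0. The submitters' processing notes name that tool with hg38, FastQC and DESeq2. A further deposited table holds a gene signal of the whole series, with a normalization not given in the sources used here. Of 179883 transcripts 168219 (93.5%) were matched to 35347 genes of GENCODE release 29, and the deposited estimated counts were added up for each gene, then rounded to whole numbers, while TPM were only added up. Of 15024 tested genes 13371 had a sum at 0.8 to 1.25 of that expected from the authors' table and the median ratio, 1028 below, 78 above, and 547 had no entry.

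Genes passed filterByExpr on the 4 groups and were scaled by TMM. Quasi-likelihood tests of edgeR 4.0.16 under R 4.3.3, two-sided, used all 12 libraries for the spread, with the contrast day 12 against day 6 in vehicle, with Benjamini-Hochberg adjustment. The common biological coefficient of variation was 10.1%. A standard error is the log2 change divided by the square root of F. The code was tested on simulated counts. Gene lists and families (37 and 36) were counted without a set test. Members, lists and the named-gene rule were chosen with earlier results of these data known. The rule took at baseline the 20 genes of highest TPM and up to 5 top members and the defining markers of a list. Between days it took the 12 largest rises and falls among called, non-overlapping genes at 1 CPM or more and up to 4 members of each list by p. For replicate 1 of day 12 and for spread it took the 10 most extreme genes, most of them incompletely summed and not named. Other genes, such as those called in every fit and the inflammatory genes, were chosen after their values were seen.

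Same-numbered vehicle libraries did not deviate together (correlations 0.113, 0.00873 and 0.0445), so the number was not taken as a pair. Alternatives were DESeq2 1.42.0 size factors and test, library totals, other filters and the effective transcript lengths of each library as an offset. Further ones were the vehicle libraries alone, limma 3.58.1 on log2 of the authors' table, the replicate block and leaving out each vehicle library. A spline offset for GC content and length was added after the data were seen. Tables used Python 3.11.15 with pandas 2.3.3 and numpy 2.4.6, and figures matplotlib 3.10.9.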

Additional observations from a re-analysis of the deposited data

How the results depend on the processing

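The 1970 genes called between days (896 higher, 1074 lower, 85 at least 2-fold) depended on the test and the libraries. The 6 vehicle libraries alone gave 9 (5 higher, 4 lower, 2 at least 2-fold), and 36 (17, 19 and 9) without replicate 1 of day 12. The effective transcript lengths of each library as an offset gave 89 (46, 43 and 8). Limma on the authors' table gave 142 (70, 72 and 23) with a pseudocount of 1 and 137 (68, 69 and 20) with 5. An adjusted p under 0.01 left 181 (78, 103 and 10). The GC and length offset gave 682 (328, 354 and 41), in the vehicle libraries alone 172 (74, 98 and 17), and with the replicate block 673 (320, 353 and 35). The replicate block without the offset gave 2365 (1050, 1315 and 88). The DESeq2 test called 1454 higher and 43 at least 2-fold, and no filter gave 148 at least 2-fold. Leaving out 1 vehicle library gave 184 to 4183 in all, 93 to 2147 higher, 89 to 2036 lower and 15 to 212 at least 2-fold, and with the GC and length offset 182 to 1087, 91 to 550, 83 to 537 and 14 to 76. The cause of these moves was not tested. With library totals 907 of 1943 called genes were higher and with DESeq2 size factors 1050 of 2047. Of 41 named genes 7 were called under every alternative, and of 1081 values 683 kept call and direction, 396 kept direction only and 2 reversed, both of PMS2P10 in the authors' table (-0.54 and -0.25 log2). Those 7 were all the genes called in every fit and were named for that reason. The counts therefore do not measure how well named genes hold in general. Depth limits genes under 0.192 CPM, where 3 reads are the floor.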

Other observations

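MYO15A, an unconventional myosin of hair cell stereocilia, was at 3142 ± 80.5 CPM at day 6 and 3493 ± 131 CPM at day 12 (SD, n = 3 each). It was higher at day 12 by 0.15 log2, and by 0.32 with the GC and length offset, but its call was lost without replicate 2 of day 12 or replicate 2 or 3 of day 6. FGFR2, a fibroblast growth factor receptor and 1 of 2 risers among 18 tested growth factor receptor kinases, had 3.76, 4.13 and 4.01 CPM at day 6 and 7.08, 6.11 and 7.28 CPM at day 12. Its days did not overlap, and the rise of 0.78 ± 0.15 log2 (edgeR adjusted p = 0.0114) stood with the offset (0.75 log2) and was lost without replicate 3 of day 6. The stress factor ATF3 went from 6.02 ± 0.109 to 3.45 ± 0.801 CPM, a call lost without replicate 1 of day 12 or replicate 2 or 3 of day 6. Called genes of protein synthesis and turnover depended on the fit. Of 81 cytosolic ribosomal protein genes 6 were higher and 6 lower, 12 and 2 with the offset and 1 and 0 without replicate 1 of day 12. Of 36 proteasome subunits 1 was higher and 6 lower (0 and 5 with the offset, 0 and 3 without replicate 1 of day 12), beside 5.96% higher and 7.15% lower over all genes (2.18 and 2.36% with the offset, 1.36 and 2.08% without replicate 1 of day 12). The median changes of the 2 lists were -0.03 and -0.04 log2. Of 427 tested C2H2-type zinc finger genes 28 were higher and 12 lower, against 7 and 3 with the offset and 5 and 1 without replicate 1 of day 12. Their median GC content was 45.3%, and the part of base composition was not tested beyond these counts. These genes were chosen after their values were seen.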
